A study of Mus musculus with 4 samples.

Results

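Platelets carry receptors with inhibitory motifs in their tails. Here 7 genes of such receptors and their phosphatases were followed: the receptors Treml1, Pecam1, Ceacam1 and Lilrb4a and the phosphatases Ptpn6, Ptpn11 and Inpp5d. They were chosen by gene symbol, and all 7 were listed in both deposited tables, out of 17995 genes listed in either table and 14652 listed in both. The series holds 4 RNA-seq libraries of mouse platelets, each from the pooled platelets of 7 male mice. One library is labelled cKO (3 months old), from mice described as lacking HuR, an RNA-binding protein encoded by Elavl1, conditionally in platelets. The sources used here do not give the promoter that drives the deletion. Its reference is the WT library of littermates, also 3 months old. The other pair is Old (24 months) against Young (3 months), both of WT genotype. The series set the library labelled cKO against WT to ask about platelet HuR, and Old against Young to ask about ageing.

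An ITIM (immunoreceptor tyrosine-based inhibitory motif) is a short stretch of a receptor's cytoplasmic tail built around a tyrosine. When Src-family kinases phosphorylate that tyrosine, the tail recruits phosphatases with SH2 domains: SHP-1 (Ptpn6) and SHP-2 (Ptpn11), which remove phosphate from proteins, or SHIP-1 (Inpp5d), which removes phosphate from the membrane lipid PIP3. In platelets this can oppose the collagen receptor GPVI and the podoplanin receptor CLEC-2, whose signals run through related activating motifs called ITAMs.

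The motif that defines the receptor group is shown as its codons, because it is what the 4 receptors have in common and what the phosphatases bind once phosphorylated. The codons were read from GENCODE M21 transcripts (genome build mm10), 5′ to 3′ on the coding strand, with the tyrosine codon in capitals. Mpig6b (G6b-B), the other abundant platelet ITIM receptor, is shown for comparison.
Treml1: gtgacaTATgccacagtt
Pecam1: gtagaaTACacagaagtg
Ceacam1: gtcgcaTACactgtcctg
Lilrb4a, first motif: attgtcTACgcccaggta
Lilrb4a, second motif: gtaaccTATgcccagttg
Mpig6b: ctgcacTACgctgatctg
Each run is 18 bases, lies in a single coding exon and starts with the codon for valine, isoleucine or leucine that the motif needs before the tyrosine. The search asked for a codon for serine, isoleucine, valine or leucine, any codon, a tyrosine codon, any pair of codons, and a codon for isoleucine, leucine or valine within the last 120 codons. A match of that kind is present in 19.1% of 21732 protein-coding genes, so it is a description of these tails and not a test. The positions are chr17:48366812-48366829 (plus strand) for Treml1, chr11:106679577-106679594 (minus) for Pecam1 and chr7:25463874-25463891 (minus) for Ceacam1. Those of Lilrb4a are chr10:51496021-51496038 and chr10:51496194-51496211 (plus), and that of Mpig6b is chr17:35064416-35064433 (minus). The motif was in frame in 5 of 5 complete coding transcripts of Pecam1, 3 of 3 of Lilrb4a, 2 of 3 of Treml1 and 2 of 7 of Ceacam1. Deposited values are per gene, so transcripts with and without the motif were not told apart.

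The deposited values were reads scaled by a constant per library, and the whole reads behind them were recovered. Totals were 17702341 reads in the library labelled cKO, 17978384 in WT, 18472149 in Old and 18145612 in Young. Elavl1, the targeted gene, had 1481 reads in the library labelled cKO, 876 in WT, 527 in Old and 621 in Young. Its level was not reduced but higher in the library labelled cKO. Scaled to library size it was 1.66-fold that of WT (1.53 to 1.81) and 2.62-fold that of Young (2.38 to 2.88). Values per gene cannot show whether an exon was deleted, so directions below are given for the library as labelled. Platelet markers took 11.4% of reads in the library labelled cKO, 12.8% in WT, 13.3% in Old and 12.1% in Young. Each group is 1 library, so no difference has a replicate check, and intervals cover counting error only. Ratios compare reads over TMM-scaled library sizes with an exact 95% interval. The words rose and fell are kept for genes that had 100 or more reads in one of the compared libraries and a whole interval beyond 2-fold. Counts over gene lists also hold genes with fewer reads, which could not pass whatever their ratio. In bulk RNA, fewer cells of a type and less RNA per cell cannot be told apart.

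Between Old and Young, 2 of the 7 genes passed that rule: Lilrb4a rose and Ptpn6 fell, while the other 5 did neither. The background over 6519 genes with at least 100 reads was 4.26% higher and 4.30% lower. Between the library labelled cKO and WT, 0 of the 7 passed, against a background of 2.52% higher and 1.71% lower over 6273 genes. The median log2 ratio of the 7 genes was 0.47 in Old over Young, against -0.06 for all genes with at least 20 reads over both libraries. The medians of the library labelled cKO over WT were -0.18 for the 7 genes and -0.02 for all genes. The platelet marker list had medians of 0.45 over 23 genes in Old over Young and -0.54 over 22 genes in the library labelled cKO over WT. Shifts in these directions were therefore not particular to the 7 genes.

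The 3-month libraries of the 2 tables allow each tested library to be set against the other table's wild-type one. In Old over WT 1 gene rose (Lilrb4a) and 1 fell (Ptpn6), against a background of 4.54% higher and 4.22% lower. Over Young, the library labelled cKO had 0 of 7 past the rule (background 2.07% higher and 0.793% lower). For WT over Young, both from 3-month-old wild-type mice, the count was also 0 of 7 (background 0.439% higher and 0.565% lower). These comparisons share libraries and are not independent.

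**Figure D1:**
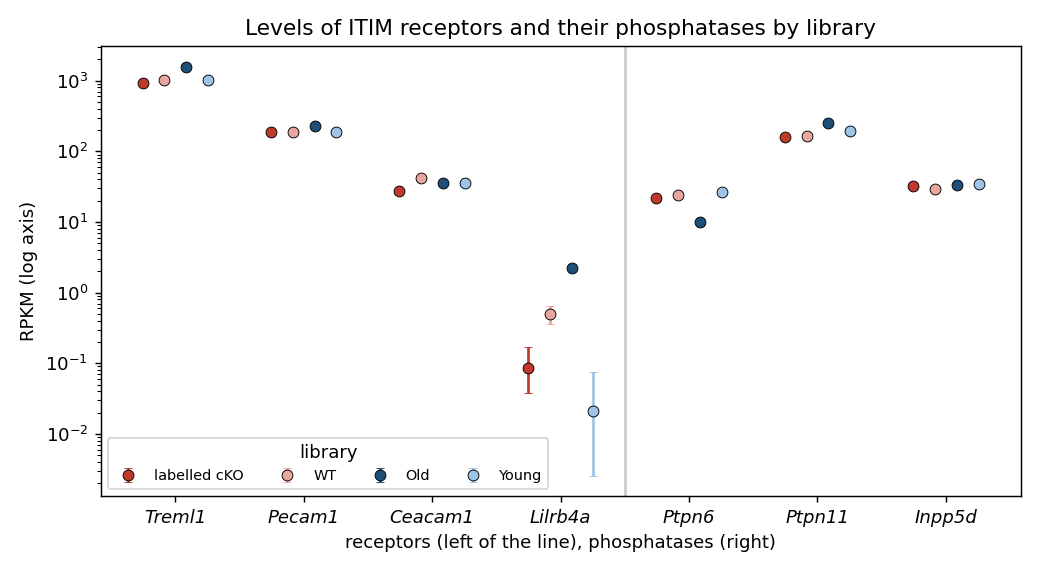
Level of each gene per length (RPKM, reads scaled to gene length and library total, log axis) in the library labelled cKO, WT, Old and Young, with exact Poisson intervals for counting error. Treml1 sits highest, between 940 and 1574, and Lilrb4a lowest, between 0.0211 and 2.26; Ptpn6 is lowest in Old.

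Treml1 encodes TLT-1, a receptor stored in platelet alpha granules and brought to the surface on activation (ENSMUSG00000023993, chr17:48359916-48367176, plus strand). It had 23337 reads in the library labelled cKO, 26006 in WT, 40760 in Old and 25586 in Young. Per length the level was 940 RPKM in the library labelled cKO (rank 60 among the genes of its table), 1032 in WT (rank 56), 1574 in Old (rank 35) and 1006 in Young (rank 57). Old stood above the other 3 libraries, which lay close together. The ratio was 1.74 (1.72 to 1.77) in Old over Young, under the 2-fold bound, and 9.96% of genes with at least 100 reads had a higher one. Against WT, Old was at 1.57 (1.55 to 1.60). The library labelled cKO over WT was at 0.882 (0.866 to 0.897), which turned to 1.02 when reads were scaled by the summed platelet genes. In the authors' deposited table the Treml1 log2 fold change of Old over Young was 0.80, with adjusted p = 0.188.

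Pecam1 encodes CD31, an adhesion receptor of platelets, leukocytes and endothelium that dampens signalling by the collagen receptor (ENSMUSG00000020717, chr11:106654217-106750628, minus strand). Its reads were 20471 in the library labelled cKO, 20670 in WT, 26489 in Old and 21014 in Young, or 186 RPKM in the library labelled cKO, 185 in WT, 230 in Old and 186 in Young. The 3 libraries of 3-month-old mice had overlapping intervals, and Old was above them. The ratio was 1.38 (1.36 to 1.41) in Old over Young and 0.973 (0.954 to 0.992) in the library labelled cKO over WT, the second of which turned to 1.01 with total reads and 1.12 with platelet scaling. Endothelial markers, which could carry Pecam1 reads too, summed to 192 RPM (reads corrected for library total) in the library labelled cKO, 203 in WT, 248 in Old and 213 in Young; 1 of 11, Flt1, rose in Old over Young (552 against 122 reads). The background of higher genes in Old over Young was 4.26%. The part of endothelial cells in the Pecam1 values was not tested.

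Treml1 and Pecam1 did not keep a constant proportion. Their per-length ratio within a library was 5.06 (4.97 to 5.16) in the library labelled cKO, 5.59 (5.49 to 5.69) in WT, 6.84 (6.73 to 6.94) in Old and 5.41 (5.31 to 5.51) in Young. Such a ratio needs no scaling between libraries, and Old had the highest. Mpig6b, which encodes a platelet and megakaryocyte ITIM receptor that binds heparan sulfate, lay between the pair per length, at 595 RPKM in the library labelled cKO, 690 in WT, 970 in Old and 704 in Young. Its reads were 25090 in the library labelled cKO, 29543 in WT, 42669 in Old and 30448 in Young. It was at 1.53 (1.51 to 1.56) in Old over Young and 0.834 (0.820 to 0.849) in the library labelled cKO over WT, and passed the rule in neither.

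Ceacam1 encodes a self-binding adhesion receptor whose long-tailed form carries the motif (ENSMUSG00000074272, chr7:25461707-25477603, minus strand). It had 2797 reads in the library labelled cKO, 4395 in WT, 3862 in Old and 3689 in Young, or 27.2 RPKM in the library labelled cKO, 42.1 in WT, 36.0 in Old and 35.0 in Young. The library labelled cKO was the lowest of the 4 and WT the highest, with Old and Young between them and their intervals overlapping. The ratio was 0.625 (0.596 to 0.656) in the library labelled cKO over WT and 0.832 (0.791 to 0.874) over Young; WT over Young was at 1.30. Of genes with at least 100 reads, 9.77% had a lower ratio in the library labelled cKO over WT. In Old over Young it was 1.15 (1.10 to 1.2), which turned to 0.940 with platelet scaling. Of the 50-base windows of its transcripts, 43.7% also occur in the near copy Ceacam2, and of the 100-base windows 30.5%. The count of Ceacam1 is uncertain for that reason, and the share of its reads in doubt is not known. Ceacam2 itself had 34 reads in the library labelled cKO, 87 in WT, 27 in Old and 52 in Young, and summing both left the ratio at 0.621 in the library labelled cKO over WT and 1.14 in Old over Young.

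Lilrb4a encodes gp49B, an inhibitory receptor known from mast cells, macrophages and neutrophils (ENSMUSG00000112148, chr10:51490956-51496611, plus strand). It was scarce everywhere: 8 reads in the library labelled cKO, 46 in WT, 218 in Old and 2 in Young, or 0.0865 RPKM in the library labelled cKO, 0.490 in WT, 2.26 in Old and 0.0211 in Young. All 4 intervals were apart except those of the library labelled cKO (0.0373 to 0.170) and Young (0.00255 to 0.0762). It rose 119-fold in Old over Young (32.7 to 992), and 0.138% of genes with at least 100 reads had a higher ratio. The size of that fold rests on the Young library: against WT, Old was 4.75-fold higher (3.44 to 6.68), still past the rule. WT was itself 25.1-fold above Young (6.57 to 214), although neither WT nor Young reached 100 reads. For Lilrb4a in the library labelled cKO over WT the ratio was 0.171 (0.0697 to 0.366), from too few reads for the rule. Over Young the ratio of that library lay on the other side of 1, at 4.39, from 8 against 2 reads. Its interval, 0.876 to 42.4, held 1. The direction for the library labelled cKO thus differed with the wild-type reference. The authors' deposited table gave log2 fold changes of 6.81 for Old over Young (adjusted p = 1.346e-16) and -2.53 for the library labelled cKO over WT (adjusted p = 0.0109) for Lilrb4a.

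The Lilrb4a count is uncertain. Of its exonic bases, 37.8% overlap 2 other annotated genes, Gm49339 on the same strand and Gm40645 on the opposite one, and 94.5% of the 50-base windows of its transcripts occur in another gene. Of all its 50-base windows, 92.5% occur in Gm49339 and 28.5% in the near copy Lilr4b, its upstream neighbour (chr10:51480632-51486703, plus strand). Lilr4b had 18 reads in the library labelled cKO, 60 in WT, 330 in Old and 17 in Young, and rose 21.3-fold in Old over Young (13.1 to 36.9). The sum of both was 31.6-fold higher in Old than in Young (20.03 to 52.9) and stood at 0.241 in the library labelled cKO over WT.

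Neutrophil markers were high in Old, as was Lilrb4a, while the monocyte and macrophage markers were mixed. Over all genes with at least 100 reads, 4.26% were higher and 4.30% lower in Old over Young. The neutrophil list summed to 41.3 RPM in the library labelled cKO, 68.5 in WT, 844 in Old and 31.5 in Young, over 9 genes listed for the first pair and 14 for Old and Young; 11 of 14 rose in Old over Young, and 5 of the 14 were at 0 in Young. The whole monocyte and macrophage list summed to 2337 RPM in the library labelled cKO, 3429 in WT, 2584 in Old and 3530 in Young, most of it from Lyz2. Of its 16 genes 3 rose in Old over Young, Csf1r, Cd14 and Ccr2, and 13 did not pass; Adgre1, at 0.373, and Mrc1, at 0.288, had ratios below 1. In Old over WT (background 4.54% higher) 1 of 15, Cd14, rose, while Csf1r (2.19, 1.67 to 2.89) and Ccr2 (2.30, 1.86 to 2.86) no longer passed. Without Lyz2, left out after its values were seen, the sum was 30.8 RPM in the library labelled cKO, 45.8 in WT, 66.6 in Old and 31.9 in Young. The 3 genes nearest to Lilrb4a in pattern over the 4 libraries were Lilr4b, the neutrophil chemokine receptor Cxcr2 and the neutrophil calcium-binding protein S100a8, at distances of 0.664, 0.971 and 1.09 on a centred log2 RPM scale. Cxcr2 had 16 reads in the library labelled cKO, 38 in WT, 353 in Old and 15 in Young. The part of these cells in the Lilrb4a values was not tested.

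**Figure D2:**
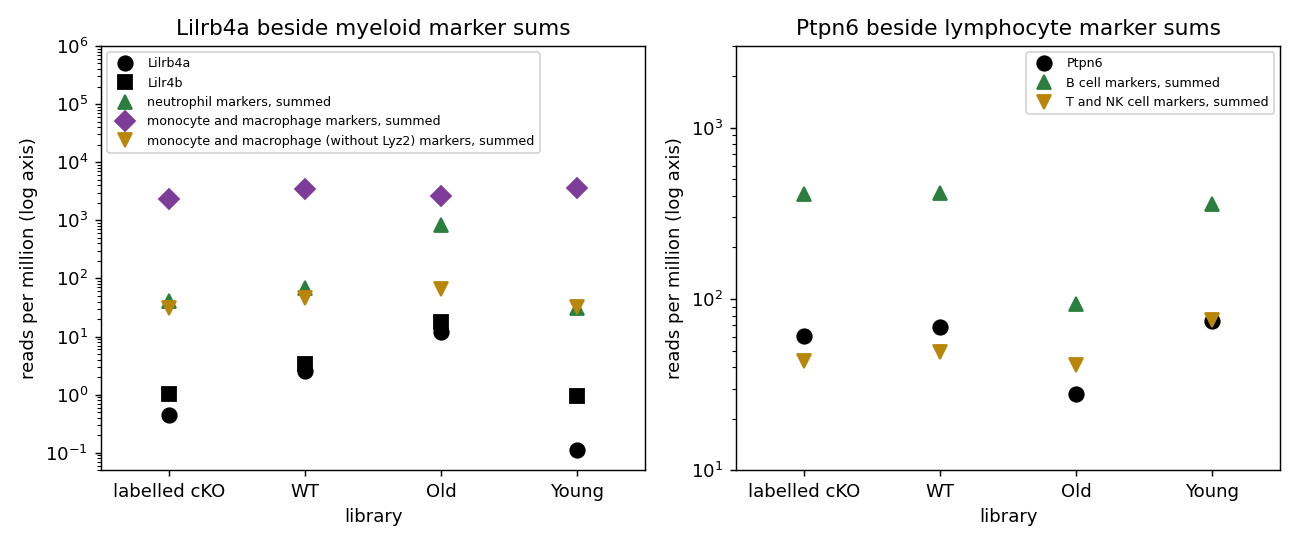
Left, Lilrb4a and Lilr4b beside the summed neutrophil markers and the summed monocyte and macrophage markers, whole and without Lyz2; right, Ptpn6 beside the summed B cell and T and NK cell markers; all in RPM (log axes) in the library labelled cKO, WT, Old and Young. On the left Old is highest for Lilrb4a, Lilr4b and the neutrophil sum, at 844, and for the monocyte and macrophage sum only without Lyz2; the whole sum is 2584 in Old and 3530 in Young. On the right, Ptpn6 and the B cell sum are both lowest in Old, at 28.0 and 93.1.

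Ptpn6 encodes SHP-1, a tyrosine phosphatase found mainly in blood cells (ENSMUSG00000004266, chr6:124720707-124738714, minus strand). It had 1074 reads in the library labelled cKO, 1226 in WT, 518 in Old and 1347 in Young, or 21.7 RPKM in the library labelled cKO, 24.3 in WT, 10.0 in Old and 26.5 in Young. Old stood well below the other 3, which lay within a narrow range. It fell 2.38-fold in Old over Young (2.14 to 2.63), and 5.57% of genes with at least 100 reads had a lower ratio. Against WT, Old was 2.36-fold lower (2.13 to 2.62), and WT over Young was at 0.995, so the fall was as large against either library of 3-month-old wild-type mice. Ptpn6 in the library labelled cKO over WT was at 0.861 (0.792 to 0.935). The authors' deposited table gave a Ptpn6 log2 fold change of -1.25 in Old over Young, with adjusted p = 0.032. Of its exonic bases, 6.96% overlap the antisense gene Gm20531, and the sources used here do not say whether reads were counted by strand.

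B cell markers were lowest in Old, as was Ptpn6, which B and T cells also express. Markers of neutrophils, also blood cells, went the other way, with 844 RPM in Old and 31.5 in Young. The background in Old over Young was 4.26% higher and 4.30% lower. The B cell list summed to 409 RPM in the library labelled cKO, 414 in WT, 93.1 in Old and 360 in Young; 7 of 11 fell in Old over Young, Pax5, Spib and Cd79a among them, and none was at 0. The T and NK cell list summed to 43.4 RPM in the library labelled cKO, 49.1 in WT, 41.3 in Old and 75.7 in Young, with 1 of 13, Gzma, lower in Old than in Young by the rule. That sum differed little between Old, WT and the library labelled cKO, unlike Ptpn6. The part of lymphocytes or neutrophils in the Ptpn6 values was not tested. Among the genes nearest to Ptpn6 in pattern were Card6 and Gcc2, at distances of 0.0501 and 0.0592.

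Ptpn11 encodes SHP-2, the widely expressed relative of SHP-1 (ENSMUSG00000043733, chr5:121130533-121191397, minus strand). It had 20884 reads in the library labelled cKO, 21813 in WT, 34436 in Old and 25983 in Young, or 157 RPKM in the library labelled cKO, 162 in WT, 249 in Old and 191 in Young. Old was the highest, Young came next, and the other 2 were lowest. The ratio was 1.45 (1.43 to 1.48) in Old over Young and 0.941 (0.923 to 0.959) in the library labelled cKO over WT, the second turning to 1.09 with platelet scaling. Against WT, Old was at 1.58 (1.56 to 1.61).

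The proportion of Ptpn11 to Ptpn6 transcripts therefore differed most in Old. It is taken over all RNA of a library, and the part of cells other than platelets in it was not tested. Per length, Ptpn11 exceeded Ptpn6 by 7.27-fold (6.84 to 7.74) in the library labelled cKO, 6.65-fold (6.28 to 7.05) in WT, 24.9-fold (22.8 to 27.2) in Old and 7.21-fold (6.83 to 7.63) in Young. The change in that ratio, which needs no scaling between libraries, was 3.45-fold (3.11 to 3.83) in Old over Young and 3.74-fold (3.36 to 4.15) in Old over WT. It was 1.09-fold (1.00 to 1.19) in the library labelled cKO over WT.

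**Figure D3:**
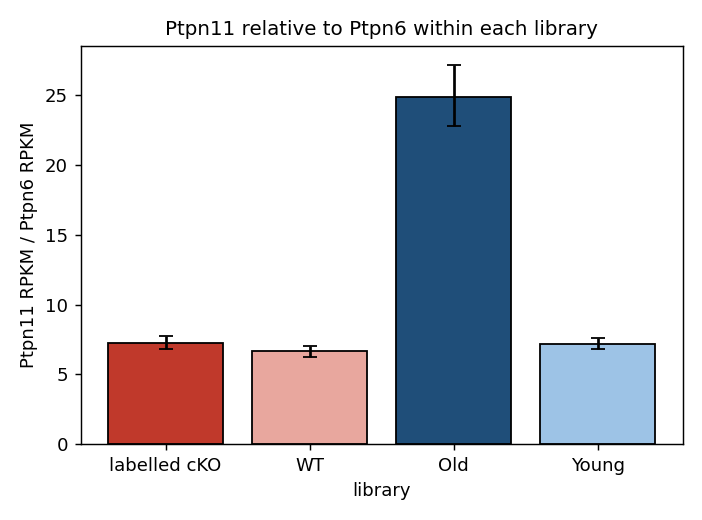
Ptpn11 over Ptpn6 per length within each library, with exact 95% intervals for counting error. Old stands at 24.9 and the library labelled cKO, WT and Young between 6.65 and 7.27.

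Inpp5d encodes SHIP-1, the lipid phosphatase of blood cells (ENSMUSG00000026288, chr1:87620312-87720507, plus strand). Its reads were 4379 in the library labelled cKO, 4045 in WT, 4649 in Old and 4793 in Young, or 32.5 RPKM in the library labelled cKO, 29.6 in WT, 33.1 in Old and 34.8 in Young. This was the narrowest range of the 7 genes. The ratio was 1.06 (1.02 to 1.11) in Old over Young, which turned to 0.953 with total reads and 0.871 with platelet scaling. The library labelled cKO over WT had the same value, 1.06 (1.02 to 1.11). Ptpn11 over Inpp5d per length was 4.84 in the library labelled cKO, 5.47 in WT, 7.52 in Old and 5.50 in Young.

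**Figure D4:**
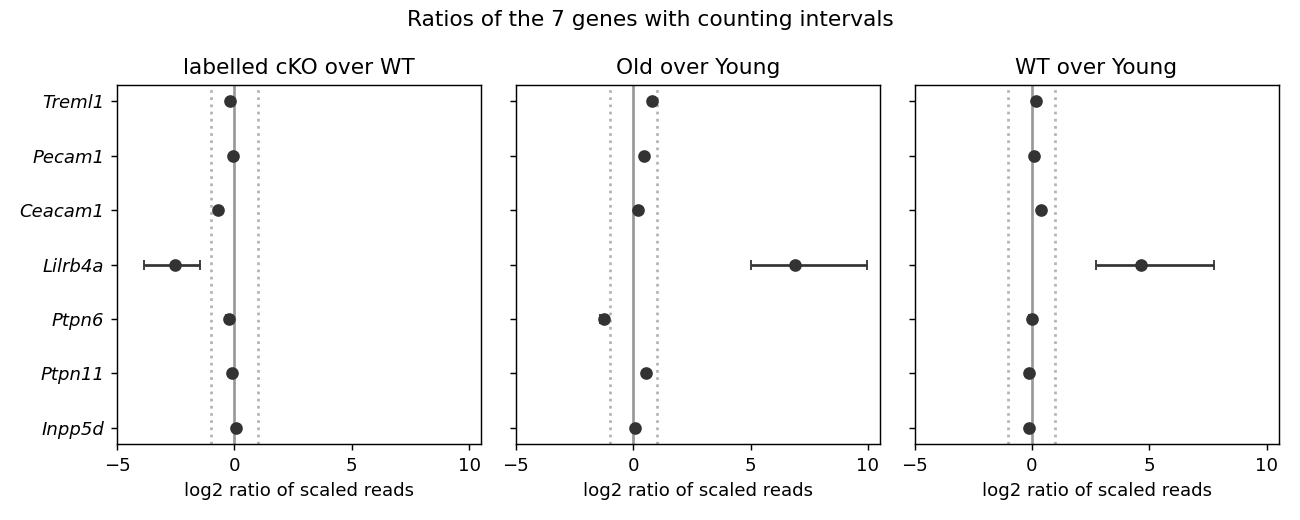
Log2 ratio of each gene with its 95% counting interval in the library labelled cKO over WT, in Old over Young and in WT over Young; dotted lines mark 2-fold. In Old over Young only Lilrb4a, at 6.90, and Ptpn6, at -1.25, have an interval wholly outside them; the interval of Lilrb4a also lies outside in the library labelled cKO over WT and in WT over Young, from under 100 reads.

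Per length, Treml1 was the highest and Lilrb4a the lowest of the 7 genes in each library. Pecam1 stood above Ptpn11 in the library labelled cKO and in WT, and below it in Old and Young. Ceacam1, Inpp5d and Ptpn6 followed, in an order that put Inpp5d above Ceacam1 in the library labelled cKO and below it in WT and Old, while in Young their intervals overlapped. Patterns most like the other genes were those of Capzb, Ptdss1 and Cox6a1 for Treml1 (distances 0.0557 to 0.0697), Gpatch8, Man1a and Itga6 for Pecam1 (0.0276 to 0.0409) and Emd, Nptn and Pcmt1 for Ceacam1 (0.0338 to 0.0588). Those of Ptpn11 were Tollip, Vps37c and G6pdx (0.0485 to 0.0694), and those of Inpp5d were Gapvd1, Tbc1d13 and Cog6 (0.0434 to 0.0457). The likeness covers 4 libraries and 5614 genes, and is a description.

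Other ITIM receptors, 25 in the list, were then read against the same background. In Old over Young 24 of them were listed, and 7 had the 100 reads that the rule and the background need. Of the 24, 4 rose, 1 fell and 19 passed in no direction, most of these from too few reads. The background was 4.26% higher and 4.30% lower, and the median log2 ratio of the list was 0.62 over 21 genes. The 4 that rose were Pirb (169 against 5 reads, 37.0-fold, 15.6 to 116), Cd33 (396 against 23, 18.9-fold, 12.4 to 30.1), Cd300lf (190 against 12, 17.3-fold, 9.70 to 34.2) and Sirpa (163 against 44, 4.06-fold, 2.89 to 5.80). Each is known from myeloid cells, and Pirb belongs to a family with near-identical activating copies, so its count is uncertain. Btla, a receptor of lymphocytes, fell, with 113 reads in Old and 334 in Young, 2.70-fold lower (2.18 to 3.37). Against WT, Cd33, Cd300lf and Sirpa rose in Old and Btla fell, while Pirb, with 81 reads in WT, did not pass. Of the 25, 0 passed in the library labelled cKO over WT (background 2.52% higher and 1.71% lower). Only 3 of them had at least 100 reads in either library and so could pass. The median log2 ratio was -0.26 over 17 genes, 5 of which had a ratio above 1. The most abundant of the list were Mpig6b and Btla, the second with 296 against 320 reads.

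**Figure D5:**
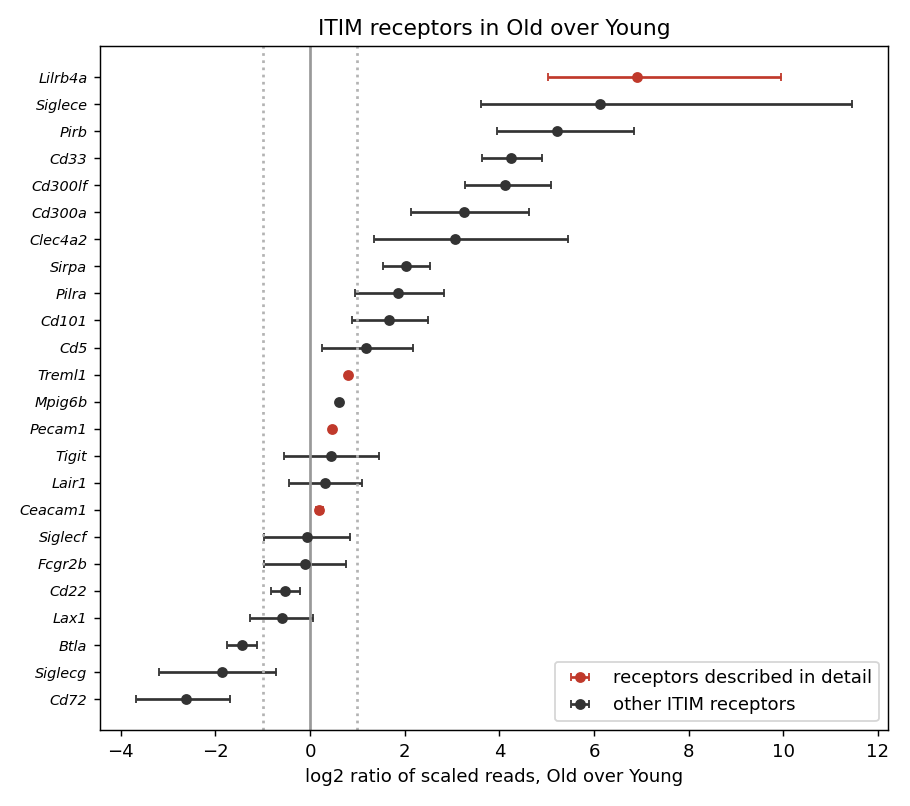
Log2 ratio of Old over Young for the 24 ITIM receptors with at least 20 reads over both libraries and a read in each, with 95% counting intervals; dotted lines mark 2-fold. Lilrb4a and Pirb, at 37.0-fold, are among the highest, Mpig6b, Treml1 and Pecam1 lie between 1 and 2-fold, and Btla is among the lowest.

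The kinases and phosphatases around these receptors were read in the same way. The background was 4.26% higher and 4.30% lower in Old over Young. It was 2.52% higher and 1.71% lower in the library labelled cKO over WT. Of 11 Src-family and related kinases 0 passed in either comparison; Lyn, which phosphorylates ITIMs in blood cells, had 14990 reads in Old, against 10585 in Young (1.55, 1.51 to 1.59), and 15722 in the library labelled cKO and 12505 in WT (1.24, 1.21 to 1.27). Syk, the kinase that ITAMs recruit, was at 1.24 in Old over Young and 1.04 in the library labelled cKO over WT. Among 15 other tyrosine phosphatases only Ptpn7, a phosphatase of lymphocytes, passed, with 99 reads in Old and 281 in Young, 2.59-fold lower (2.05 to 3.29). It did not pass in Old over WT. The abundant Ptprj (CD148), which activates Src kinases in platelets, was at 1.27 in Old over Young and 1.06 in the library labelled cKO over WT. Ptpn12 (PTP-PEST), the other abundant one, was at 0.910 in Old over Young and 1.19 in the library labelled cKO over WT.

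Of 12 adaptors found in inhibitory complexes, Pag1, which anchors the Src inhibitor Csk in the membrane, rose in Old (263 reads, against 73 in Young; 3.95-fold, 3.03 to 5.19), and 0 passed in the library labelled cKO over WT. Grb2 and Gab2, the most abundant there, were at 1.15 and 1.51. Of 18 phosphoinositide enzymes 0 passed in either comparison. Among them Akt2, a kinase that PIP3 recruits, was at 1.29 in the library labelled cKO over WT and 1.04 in Old over Young. For both lists the background was 4.26% higher and 4.30% lower in Old over Young. In the library labelled cKO over WT it was 2.52% higher and 1.71% lower.

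On the activating side, 2 of 11 ITAM receptors and effectors rose in Old over Young (background 4.26% higher). Lat, the scaffold of the collagen receptor pathway, had 6743 reads in Old, against 3400 in Young (2.17-fold, 2.08 to 2.26), and was 2.51-fold higher in Old than in WT. Tyrobp, an ITAM adaptor of myeloid and NK cells, had 142 reads in Old, against 54 in Young (2.88-fold, 2.09 to 4.02), but over WT, with 107 reads, it was at 1.33 (1.03 to 1.73) and did not pass. The count was 0 of 11 in the library labelled cKO over WT (background 2.52% higher and 1.71% lower), with a median log2 ratio of -0.28. Clec1b, which encodes CLEC-2, had 29322 reads in the library labelled cKO and 41576 in WT, a ratio of 0.693 (0.683 to 0.703). Gp6, which encodes GPVI, had 17902 reads in the library labelled cKO and 25797 in WT, a ratio of 0.682 (0.669 to 0.695).

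Neighbours and relatives of the receptors were read last, beside the same background. That was 4.26% higher and 4.30% lower in Old over Young, and 2.52% higher and 1.71% lower in the library labelled cKO over WT. Of 5 listed genes of the TREM locus beside Treml1, 0 passed in either comparison. Only 4 had 100 reads in Old over Young, and 3 in the library labelled cKO over WT. In Old over WT (background 4.54% higher) 1 rose, Treml4, with 101 against 26 reads (3.89-fold, 2.51 to 6.24). Treml2 had 38793 reads in the library labelled cKO, 35939 in WT, 48284 in Old and 34430 in Young. Its ratio was 1.54 in Old over Young. Trem1 was at 2.01 (1.73 to 2.35) in Old over Young and 0.762 in the library labelled cKO over WT. Of the Ceacam and Lilr relatives, 9 were listed in the Old and Young table, and Lilr4b alone rose; in the table of the library labelled cKO and WT 5 were listed and 0 passed.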

How the data were processed

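Platelet RNA was measured in 4 pooled libraries. The authors deposited 2 tables that hold, per gene, a signal that is read counts scaled by a constant per library, with gene length, and, per the file headers, a log2 fold change with a p-value and adjusted p-value. The submitters' processing notes name build mm10, the counter featureCounts 1.5.0-p3, the aligner HISAT2 2.0.5, CASAVA and DESeq2 1.20.0; the sources used here do not say how shared reads or strand were counted. The test behind the deposited p-values compares 2 libraries, not conditions. A further 4 per-sample columns match no sample and were not used.

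Dividing each signal by its library's step gave whole reads within 0.02 read for at least 99.99% of values. TMM library sizes came from edgeR 4.0.16 (R 4.3.3) within each pair; pairs across the tables used genes listed in both. Ratios have exact 95% intervals, by Clopper-Pearson on the split of a gene's reads between both libraries. PCR copies were not marked by molecular identifiers, so intervals and floors cover counting error only. A count of 0 allows 3 reads, 0.162 to 0.169 RPM. No count test was run, since 1 library per group leaves no spread between replicates. List medians used a pseudocount of 0.5 read and members with 20 or more reads in both libraries together. RPKM used the deposited gene length, which equals the merged exons of GENCODE M21 for the 7 genes. Likeness is the Euclidean distance between log2 (RPM + 0.5) profiles centred on their mean, among protein-coding genes averaging at least 100 reads. Python 3.11.15, numpy 2.4.6, scipy 1.17.1 and pandas 2.3.3 were used, and the ratio and its interval were tested on simulated data. Alternatives were median-of-ratios sizes (DESeq2 1.42.0), total reads, summed platelet genes, the other wild-type library of 3-month-old mice, other minimum counts and bounds, and sums over near copies.

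The 7 genes, the lists and the rules were chosen with earlier results of these data known. Named genes were the 7 genes, the copies Lilr4b and Ceacam2, Elavl1, per list and comparison up to 4 genes past the rule with the largest bound and otherwise the 2 most abundant, and the 3 genes nearest in pattern. Named after their values were seen were Btla in Old, Flt1, Csf1r, Cd14, Ccr2, Lyz2, Adgre1, Mrc1, Pax5, Spib, Cd79a, Gzma and values of named genes in the other comparison. Some genes that the rule names are not reported here.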

Additional observations from a re-analysis of the deposited data

How the results depend on the processing

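No paired analysis was possible because each group has 1 library, and for the same reason no library could be left out within a group. Lilrb4a in Old over Young stayed past the rule under 3 other scalings and against WT, and so did Ptpn6. For the library labelled cKO over WT, 1 gene passed as lower in place of 0 with a minimum of 20 reads or no minimum (Lilrb4a), and 1 with a bound of 1.5-fold (Ceacam1). With that bound 2 genes rose in Old over Young (Treml1 added). Relative to TMM, total reads shifted every log2 ratio of Old over Young by -0.16 and platelet-gene scaling by -0.29; platelet-gene scaling shifted those of the library labelled cKO over WT by 0.21. Of the 7 genes, 6 lay above 1 in Old over Young with TMM and 4 with platelet scaling, and in the library labelled cKO over WT 1 did with TMM and 4 with platelet scaling. Of single ratios and list medians under the alternatives, 69 moved beyond the counting interval or by over 0.1 log2 and 93 did not, and none of the called ratios changed sign. Depth limits Lilrb4a most, with 2 reads in Young.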

Other observations

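Marker lists of other cells were also read beside the background over genes with at least 100 reads. That was 2.52% higher and 1.71% lower in the library labelled cKO over WT. In Old over Young it was 4.26% higher and 4.30% lower. Erythroid genes rose in the library labelled cKO over WT, 10 of 16 with 1 lower, and summed to 16210 RPM there, 8340 in WT, 11500 in Old and 21660 in Young; in Old over Young 1 rose and 1 fell. Of 23 platelet genes 5 fell in the library labelled cKO over WT and 3 rose in Old over Young. Class II and dendritic cell genes summed to 424 RPM in the library labelled cKO, 436 in WT, 157 in Old and 355 in Young, with 1 of 9 lower by the rule in each comparison. Of the 6 listed mast cell and basophil genes 1 rose and 1 fell in Old over Young and 0 passed in the library labelled cKO over WT. The part of any of these cells in the values of the ITIM receptors was not tested.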
